A study of Mus musculus with 8 samples.

Results

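The 40 genes described here encode the glucose and lactate transporters, the enzymes of glycolysis with their control enzymes and isozymes, and a group of well known targets of the hypoxia-inducible factor HIF1. They were taken by symbol from a fixed list that was chosen with earlier results of these data known. Their shares set beside those of all genes are therefore description and not an independent test. All 40 were found among the 54281 genes that could be joined between the 8 deposited count tables. By role they comprise 4 transporters, 9 genes of upper glycolysis, 6 of lower glycolysis, 2 lactate dehydrogenases, 3 enzymes of flux control, 2 phosphoglucomutases, 5 genes of HIF feedback and oxygen sensing, 2 of mitophagy, 5 of secreted factors and protein modification, and 2 of pH control and stress.

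RNA was sequenced from mouse CD4+ T cells of Cd4_cre Rora_fl/fl donors (called knockout) and of Rora_fl/fl donors without the Cre (called control), so that both genotypes carry the floxed Rora allele and Cre is driven by Cd4, which is active in the T cell lineage. In the colon experiment naive cells of either genotype were moved into Tcrbd-/- recipients, which have no T cells of their own but keep their other cells, and CD4+ T cells were isolated from the colon after 6 weeks (2 knockout and 2 control libraries). In the culture experiment naive cells were activated through CD3 and CD28 and grown for 4 days toward the Th17 fate, in IL-6 with IL-1β and IL-23 (the IL-1β mix) or in TGF-β with IL-6 (the TGF-β mix, 1 knockout and 1 control library in each mix). All cells were restimulated with PMA and ionomycin for 2 h before RNA extraction, and the labels give neither the age of the mice nor whether the colon replicates were separate mice.

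Glycolysis splits glucose into pyruvate, and activated T cells use it heavily, sending much of the pyruvate to lactate. HIF1, a pair of the HIF-1α and ARNT proteins, binds short DNA motifs near many genes of this pathway and raises their transcription when oxygen is low. In T cells HIF-1α also accumulates downstream of mTORC1 and is known for its part in Th17 differentiation.

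Library totals were 13778437 and 14440260 counts for the knockout and 13176752 and 14967756 for the control in colon, and between 15252700 and 15922696 in culture. Rora, the targeted gene, had 134 and 149 CPM (counts scaled to library size by the TMM method) in knockout and 252 and 291 CPM in control colon libraries. In culture the knockout level was 38.8% of the control level in the IL-1β mix and 38.0% of it in the TGF-β mix. Each T cell marker of a list of 17 was detected in colon, where their summed level was 11805 and 11584 CPM in knockout and 15147 and 14592 CPM in control libraries. Markers of other cells were also present in colon, and none of them was at 0 in all 4 libraries. Their summed levels were higher in knockout for epithelium (138 and 138 CPM in knockout, 53.4 and 50.1 CPM in control). The same held for fibroblasts (133 and 128 CPM in knockout, 41.4 and 33.7 CPM in control). B and plasma cell markers were also higher (2093 and 2276 CPM in knockout, 598 and 585 CPM in control). So were those of dendritic cells (510.2 and 538 CPM in knockout, 368 and 363 CPM in control). Macrophage markers were higher too (75.3 and 73.7 CPM in knockout, 55.2 and 51.4 CPM in control). Endothelial and neutrophil sums overlapped between the genotypes. Endothelial markers had 103.6 and 99.3 CPM in knockout and 104.8 and 99.6 CPM in control. Of the 3 endothelial markers tested 2 were higher in knockout. Neutrophil markers had 0.477 and 0.517 CPM in knockout and 0.488 and 1.001 CPM in control.

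The 40 genes took 0.592% and 0.583% of all counts in knockout and 0.711% and 0.683% in control colon libraries. In culture in the IL-1β mix they took 2.31% in knockout and 2.35% in control, and in the TGF-β mix 1.19% in knockout and 1.23% in control. The share was thus lower in both knockout colon libraries than in both control ones, and in culture the mixes lay further apart than the genotypes.

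**Figure D1:**
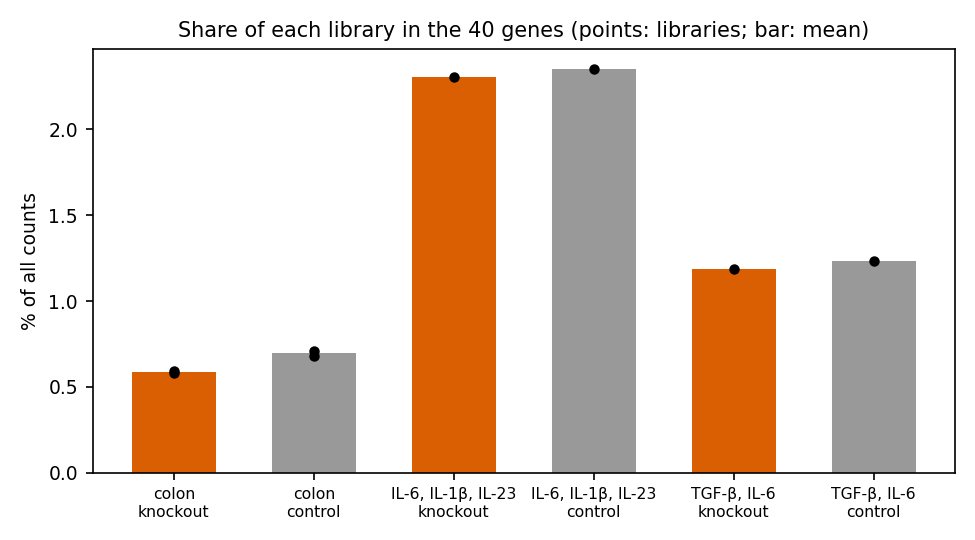
Percentage of each library's counts that fell on the 40 genes, on the vertical axis, for the 6 groups on the horizontal axis; points are libraries and bars are group means. The cultures in the IL-1β mix lie at 2.31% and 2.35%, and the knockout colon libraries lie lowest, at 0.592% and 0.583%.

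Promoter sequences are shown for the 4 genes with the smallest p-values of the genotype difference in colon (Hk2, Ldha, Eno1 and Pfkl) and for the 4 with the smallest p-values of the cytokine mix that had a promoter in the RefSeq table (Pgm1, P4ha2, Ero1l and Mxi1), so that the HIF-type motifs of genes that moved can be read directly. RefSeq (build GRCm38.p6) gave promoters for 37 of the 40 genes, and not for Slc2a3, Bnip3l and Ndrg1. Each window of 300 bases runs 5′ to 3′ on the gene's strand, from 250 bases before the start to 50 after it, and where a gene has several starts the one nearest the annotated 5′ end of the gene was taken. Capitals mark ACGTG or GCGTG on either strand, the core of the hypoxia response element, so that CACGT and CACGC are the same motifs on the opposite strand.
Hk2: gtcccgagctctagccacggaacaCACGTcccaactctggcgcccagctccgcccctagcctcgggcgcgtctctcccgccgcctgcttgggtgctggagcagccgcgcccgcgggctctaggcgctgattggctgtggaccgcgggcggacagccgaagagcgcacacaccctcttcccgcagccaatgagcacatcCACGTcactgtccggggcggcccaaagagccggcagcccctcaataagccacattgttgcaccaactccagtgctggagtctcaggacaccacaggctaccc
Ldha: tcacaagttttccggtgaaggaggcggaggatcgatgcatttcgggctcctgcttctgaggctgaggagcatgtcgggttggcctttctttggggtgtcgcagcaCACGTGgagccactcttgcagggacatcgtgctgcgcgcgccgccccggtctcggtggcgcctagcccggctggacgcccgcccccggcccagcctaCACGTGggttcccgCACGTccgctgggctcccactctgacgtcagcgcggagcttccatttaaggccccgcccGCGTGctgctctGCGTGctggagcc
Eno1: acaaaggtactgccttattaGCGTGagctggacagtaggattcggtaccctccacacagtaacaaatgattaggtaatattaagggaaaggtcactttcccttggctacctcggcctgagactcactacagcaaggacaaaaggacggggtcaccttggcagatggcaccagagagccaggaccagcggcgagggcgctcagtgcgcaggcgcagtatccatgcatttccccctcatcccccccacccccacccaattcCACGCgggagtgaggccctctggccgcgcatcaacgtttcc
Pfkl: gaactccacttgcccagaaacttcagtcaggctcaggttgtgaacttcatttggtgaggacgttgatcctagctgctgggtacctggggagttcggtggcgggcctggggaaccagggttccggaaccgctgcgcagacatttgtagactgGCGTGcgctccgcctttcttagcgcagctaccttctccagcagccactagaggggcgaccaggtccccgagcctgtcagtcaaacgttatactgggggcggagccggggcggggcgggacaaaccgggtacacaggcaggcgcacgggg
Pgm1: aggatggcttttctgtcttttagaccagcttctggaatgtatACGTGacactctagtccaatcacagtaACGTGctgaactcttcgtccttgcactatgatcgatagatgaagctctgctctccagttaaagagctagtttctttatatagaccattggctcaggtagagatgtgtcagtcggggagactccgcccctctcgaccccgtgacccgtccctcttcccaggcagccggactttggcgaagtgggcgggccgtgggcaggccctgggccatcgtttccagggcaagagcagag
P4ha2: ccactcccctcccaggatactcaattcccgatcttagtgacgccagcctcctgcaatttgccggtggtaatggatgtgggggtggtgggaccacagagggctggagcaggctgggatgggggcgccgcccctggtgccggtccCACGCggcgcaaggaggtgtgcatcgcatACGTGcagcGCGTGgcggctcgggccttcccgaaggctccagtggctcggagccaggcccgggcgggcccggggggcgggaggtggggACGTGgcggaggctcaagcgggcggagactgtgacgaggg
Ero1l: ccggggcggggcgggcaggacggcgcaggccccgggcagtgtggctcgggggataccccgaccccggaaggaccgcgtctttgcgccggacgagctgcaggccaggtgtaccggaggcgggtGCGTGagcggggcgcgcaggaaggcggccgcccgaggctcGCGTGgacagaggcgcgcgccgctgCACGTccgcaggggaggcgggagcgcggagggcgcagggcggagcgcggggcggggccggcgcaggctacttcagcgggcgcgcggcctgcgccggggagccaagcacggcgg
Mxi1: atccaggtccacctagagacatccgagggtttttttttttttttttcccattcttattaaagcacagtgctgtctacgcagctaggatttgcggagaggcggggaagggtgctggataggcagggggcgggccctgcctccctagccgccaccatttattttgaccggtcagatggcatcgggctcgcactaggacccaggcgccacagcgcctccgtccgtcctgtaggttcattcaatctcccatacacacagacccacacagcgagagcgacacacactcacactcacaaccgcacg

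These windows lie at chr6:82774405-82774704 (minus strand, Hk2), chr7:46845554-46845853 (plus, Ldha), chr4:150236458-150236757 (plus, Eno1), chr10:78009758-78010057 (minus, Pfkl), chr4:99929201-99929500 (plus, Pgm1), chr11:54100674-54100973 (plus, P4ha2), chr14:45318523-45318822 (minus, Ero1l, named Ero1a in RefSeq) and chr19:53310256-53310555 (plus, Mxi1). Ldha held 7 of the motifs, P4ha2 held 4, Ero1l held 3, Hk2, Eno1 and Pgm1 held 2 each and Pfkl held 1. The Mxi1 window held none, but Mxi1 has 3 starts and only the nearest is shown. Over all starts 34 of the 37 genes, Mxi1 among them, held ACGTG or GCGTG at 1 or more. Motifs were counted on both strands, and 2 of the stretches in Ldha form CACGTG, which counts as 2 motifs because ACGTG lies on either strand. The Ldha start used lies 4329 bases from the annotated 5′ end of the gene. Over all starts in the table, 43 of 55 promoters of the listed genes held ACGTG or GCGTG (78.2%), against 43.8% of all 32851 promoters and 49.3% of the 21263 promoters of protein-coding genes. The 6-base ROR-type core AGGTCA, searched on both strands, was in 7 of the 55 (12.7%), against 16.3% of all and 14.7% of protein-coding promoters. In the windows nearest the annotated starts ACGTG or GCGTG was in 10 of 15 genes lower in knockout colon cells. The same motifs were in 5 of 6 higher genes and 11 of 13 that did not pass. AGGTCA was in 2 of the 15 lower genes, 0 of the 6 higher ones and 1 of the 13 others. For the cytokine mix described further on ACGTG or GCGTG was in 24 of 32 higher genes, 3 of 3 lower ones and 2 of 2 that did not pass. AGGTCA was in 3, 0 and 0 of these. No share over all genes was computed for these windows. A match is a run of letters and not a measured binding site.

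In colon 14 of the 26 genes of glucose transport, glycolysis and its control were lower in knockout T cells. Of the 40 genes 37 had enough counts to test, and 16 were lower in knockout, where 19.9% of the 13101 genes tested were lower. Another 6 were higher (16.2%), a share below the 19.6% of all genes tested that were higher. Without adjustment 23 had a p under 0.05, where 48.1% of all genes did. The median log2 fold change was -0.19 over the 37 genes and 0.01 over all genes tested. In bulk RNA fewer cells of a type and less RNA per cell cannot be told apart. Divided by role, 0 of these 26 genes were higher and 12 did not pass, with a median log2 fold change of -0.44. Of the other 14 genes 6 were higher, 2 were lower, 3 did not pass and 3 were not tested, with a median of 0.26 over those tested. This division was made after the values were known and was not tested. In a further list of HIF1 targets, 9 of 32 were lower and 6 higher.

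These calls depended in part on how the colon libraries were scaled. Scaling by library totals moved the median of all genes by 0.19 on the log2 scale, so that 77.3% of all calls were higher in knockout, against 49.6% with TMM, and 10 of the listed genes were then higher and 12 lower. Scaling to the 17 T cell markers, a setting chosen after the data were seen, moved that median by 0.31. Of the 6163 calls over all genes 88.1% were then higher in knockout. With this scaling 11 listed genes were higher in knockout (Slc16a1, Hk1, Pfkfb3, Egln3, Kdm3a, Bnip3l, Vegfa, P4ha1, P4ha2, Ero1l and Ndrg1). Another 10 were lower, as they were with TMM, namely Slc2a3, Slc16a3, Hk2, Gpi1, Pfkl, Tpi1, Pgam1, Eno1, Pkm and Ldha. Of the 22 calls 13 held in every one of 11 alternative settings, these 10 with Egln3, Vegfa and Ero1l. Beside these values, 13 of the 17 T cell markers were lower in knockout and 1 was higher (median log2 fold change -0.37), and 6 of the 7 tested B and plasma cell markers and 5 of the 9 tested macrophage markers were higher, as were 4 of the 7 tested dendritic cell markers, of which 2 were lower. What part the other cells have in these differences was not tested.

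**Figure D2:**
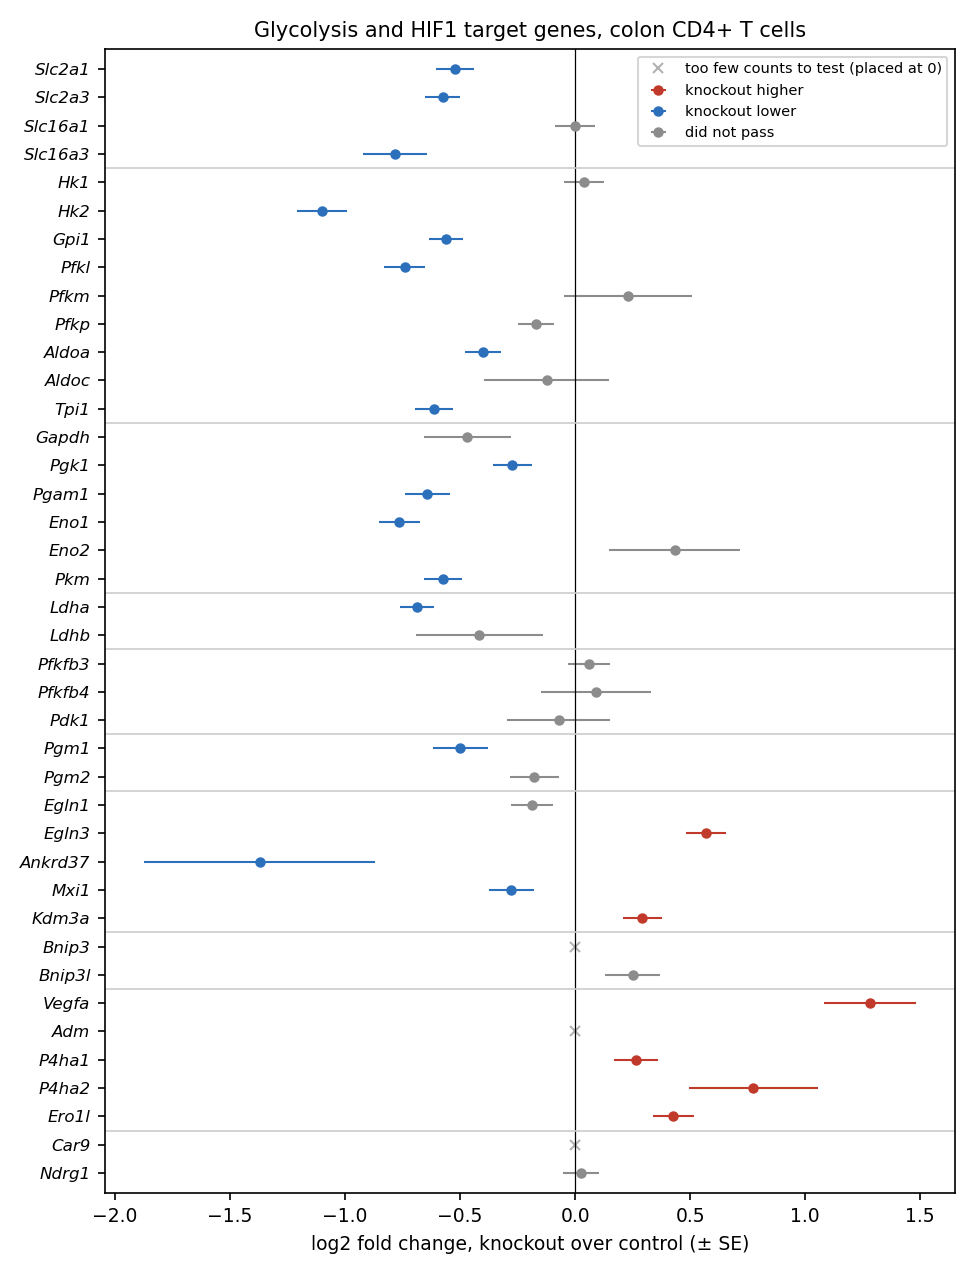
Log2 fold change of knockout over control in colon CD4+ T cells (horizontal axis, ± SE, 2 libraries against 2) for the 40 genes in order of role, with grey lines between roles. Blue points are the 16 lower genes, red points the 6 higher ones, grey points did not pass an adjusted p of 0.05, and the crosses at 0 are Bnip3, Adm and Car9, which had too few counts.

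Among the transporters, Slc2a3, which encodes the high-affinity glucose carrier GLUT3, had 311 and 319.9 CPM in knockout and 467 and 474 CPM in control colon libraries. The groups did not overlap, and the log2 fold change was -0.58 ± 0.08 (SE, adjusted p = 0.00015). Slc2a1, which encodes GLUT1, had 117 and 106 CPM in knockout and 156 and 164 CPM in control, a log2 fold change of -0.52 ± 0.08 (adjusted p = 0.00058) that missed the threshold with T cell marker scaling (adjusted p = 0.068). Slc16a3, the lactate exporter MCT4, was scarcer, with 15.0 and 13.7 CPM in knockout and 21.7 and 27.5 CPM in control, and was lower by a log2 fold change of -0.78 ± 0.14. Slc16a1, the lactate carrier MCT1, had 98.8 and 109 CPM in knockout and 99.6 and 108 CPM in control, ranges that lie on top of each other. It did not pass with TMM (adjusted p = 1.0), and with T cell marker scaling its log2 fold change was 0.31 (adjusted p = 0.022). Per kilobase of exon, Slc16a1 stood 7.91 and 9.51 times above Slc16a3 in knockout and 5.51 and 4.70 times above it in control.

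In upper glycolysis 5 of 9 genes were lower in knockout colon cells and 4 did not pass. Hk2, the hexokinase that traps glucose in the cell and whose promoter above holds 2 motifs, had 115 and 93.7 CPM in knockout and 242 and 207 CPM in control libraries. Both knockout libraries lay far below both control ones, with a log2 fold change of -1.10 ± 0.11 (adjusted p = 2.6e-05). Hk1, the hexokinase found in most tissues, had 156 and 138 CPM in knockout and 148 and 138 CPM in control, and did not pass (log2 fold change 0.04 ± 0.09). Per kilobase of exon the level of Hk1 was 0.945 and 1.03 times that of Hk2 in knockout libraries and 0.427 and 0.468 times in control libraries, so the hexokinases stood about level in knockout cells while Hk2 led in control cells.

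Of the phosphofructokinases, which make the committed step of glycolysis, the liver-type Pfkl had 52.4 and 48.6 CPM in knockout and 86.7 and 82.4 CPM in control. Its groups were clearly apart (log2 fold change -0.74 ± 0.09, adjusted p = 8.2e-05). The platelet-type Pfkp, the most abundant of them per length in all 8 libraries, had 389 and 374 CPM in knockout and 442 and 415 CPM in control and did not pass (-0.17 ± 0.08, adjusted p = 0.10). The muscle-type Pfkm had 2.86 and 2.52 CPM in knockout and 2.77 and 1.86 CPM in control, overlapping ranges, and did not pass.

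Gpi1, the isomerase that follows hexokinase, had 422 and 421 CPM in knockout and 631 and 612 CPM in control, and Tpi1, which interconverts the triose phosphates, had 55.0 and 53.4 CPM in knockout and 84.7 and 81.4 CPM in control. In both genes the replicates were close together and the groups apart, with log2 fold changes of -0.56 ± 0.07 and -0.61 ± 0.08. Aldoa, the main aldolase of these cells, had 1110.1 and 1073 CPM in knockout and 1487 and 1393 CPM in control (log2 fold change -0.40 ± 0.08, adjusted p = 0.0019). This call was lost with T cell marker scaling (adjusted p = 0.38). Aldoc, the aldolase known from brain, had 1.98 and 2.07 CPM in knockout and 2.20 and 2.22 CPM in control and did not pass.

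In lower glycolysis 4 of 6 genes were lower. Eno1, the common enolase, had 179 and 164 CPM in knockout and 311 and 272 CPM in control, with no overlap (log2 fold change -0.77 ± 0.09, adjusted p = 7.4e-05). Pkm, the pyruvate kinase gene, had 779.5 and 736 CPM in knockout and 1188 and 1069 CPM in control (-0.57 ± 0.08, adjusted p = 0.0003). Pgam1, a phosphoglycerate mutase, had 24.2 and 24.5 CPM in knockout and 38.3 and 37.8 CPM in control, where replicates differed by under 1 CPM. Pgk1, the phosphoglycerate kinase, was nearer to the threshold, with 104 and 101 CPM in knockout and 131 and 118 CPM in control (log2 fold change -0.27 ± 0.08, adjusted p = 0.023). Its direction flipped to 0.04 with T cell marker scaling (adjusted p = 0.73), and the call was also lost with library totals (adjusted p = 0.47), without control replicate 1 (adjusted p = 0.17) and without knockout replicate 2 (adjusted p = 0.059).

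Gapdh, which oxidises glyceraldehyde phosphate, did not pass, and its replicates lay far apart, with 39.4 and 56.3 CPM in knockout and 51.8 and 80.4 CPM in control. The groups overlapped. Its level is uncertain, because 78 other annotated genes share at least 200 bases with it at 95% identity or more. Bnip3 has 5 such copies, Ldha and Pgk1 have 4 each, Eno1 has 3 and Pkm has 2. Gpi1, Pfkp, Tpi1, Pgam1, Ldhb, Bnip3l and Ndrg1 have 1 each. Of the exon bases of Pkm 15.3% are also annotated to another gene on the same strand, and 22.3% of those of Bnip3 on the opposite strand. Eno2, the enolase known from neurons, was at 2.80 and 2.26 CPM in knockout and 2.11 and 1.64 CPM in control and did not pass.

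Ldha turns pyruvate into lactate, and its promoter printed above holds 7 motifs when each CACGTG is counted on both strands. Ldha had 793 and 781 CPM in knockout and 1274 and 1259 CPM in control colon libraries. The spread within a group was small beside the gap between groups, with a log2 fold change of -0.69 ± 0.07 (adjusted p = 4.7e-05). Ldhb, its partner subunit, was at 1.71 and 1.88 CPM in knockout and 2.36 and 2.43 CPM in control and did not pass (-0.42 ± 0.28). Per kilobase of exon Ldha exceeded Ldhb 221-fold and 197-fold in knockout and 256-fold and 246-fold in control.

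None of the 3 genes of flux control passed in colon. Pfkfb3, which makes the fructose 2,6-bisphosphate that activates phosphofructokinase, had 76.8 and 70.4 CPM in knockout and 73.6 and 67.6 CPM in control. Pfkfb4, another such enzyme, and Pdk1, a kinase that shuts off pyruvate dehydrogenase, had between 2.79 and 4.36 CPM in the 4 libraries. Of the phosphoglucomutases, which link glycogen with glycolysis, Pgm1 had 17.7 and 15.5 CPM in knockout and 23.8 and 23.2 CPM in control (log2 fold change -0.50 ± 0.12, adjusted p = 0.0067). That call was lost with library totals (adjusted p = 0.060) and with T cell marker scaling (adjusted p = 0.22). Pgm2 had 28.6 and 31.8 CPM in knockout and 32.4 and 35.8 CPM in control and did not pass. The colon tables use these names the other way round, so they are given here by identifier, Pgm1 for ENSMUSG00000025791 and Pgm2 for ENSMUSG00000029171.

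Among HIF feedback and oxygen-sensing genes the directions were mixed. Egln3, a prolyl hydroxylase that marks HIF-1α for destruction, had 71.1 and 69.9 CPM in knockout and 48.6 and 46.5 CPM in control, groups well apart (log2 fold change 0.57 ± 0.09, adjusted p = 0.00042). Egln1, the main such hydroxylase in most cells, had 49.0 and 54.7 CPM in knockout and 59.1 and 58.9 CPM in control and did not pass (-0.19 ± 0.09, adjusted p = 0.13). Per kilobase of exon Egln1 was at 0.511 and 0.580 times the level of Egln3 in knockout and at 0.900 and 0.939 times in control.

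Kdm3a, a histone demethylase, was higher, with 100.2 and 109.5 CPM in knockout and 83.8 and 87.4 CPM in control (0.29 ± 0.08, adjusted p = 0.017). It lost the call without control replicate 1 (adjusted p = 0.094) and without knockout replicate 2 (adjusted p = 0.14). Mxi1, an antagonist of MYC, was lower, with 101 and 113 CPM in knockout and 119.7 and 140.0 CPM in control (-0.28 ± 0.10, adjusted p = 0.039), but stood at 0.03 with T cell marker scaling (adjusted p = 0.84). Its call was also lost with library totals (adjusted p = 0.52), with DESeq2 (0.053), without control replicate 2 (0.26) and without knockout replicate 1 (0.10). Ankrd37 had 6 and 11 counts in knockout and 11 and 28 in control, so that the raw counts touched at 11. In CPM, knockout had 0.409 and 0.712 and control had 0.895 and 2.00. It passed narrowly (log2 fold change -1.37 ± 0.50, adjusted p = 0.048) and lost the call in 5 of 11 settings, among them without control replicate 2 (adjusted p = 0.56) and without knockout replicate 1 (adjusted p = 0.14), and 26.4% of its exon bases overlap genes on the opposite strand.

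All 4 tested genes of secreted factors and protein modification were higher in knockout colon cells, where 19.6% of all genes tested were higher. Vegfa, the vascular growth factor, had 6.89 and 7.89 CPM in knockout and 2.77 and 3.29 CPM in control, from 101 and 122 counts in knockout and 34 and 46 in control. The groups did not overlap, and the log2 fold change was 1.28 ± 0.20 (adjusted p = 0.0005). Ero1l, an oxidase that drives disulfide formation in the endoplasmic reticulum, had 82.4 and 91.3 CPM in knockout and 63.1 and 66.1 CPM in control (0.43 ± 0.09, adjusted p = 0.0028). P4ha1 and P4ha2 encode catalytic subunits of collagen prolyl 4-hydroxylase. P4ha1 had 60.4 and 59.1 CPM in knockout and 53.4 and 46.3 CPM in control, and P4ha2 had 3.27 and 2.72 CPM in knockout and 1.46 and 2.00 CPM in control. Both lay close to the threshold (adjusted p = 0.047 each). P4ha1 lost the call in 6 of 11 settings, among them without control replicate 2 (0.36), without knockout replicate 1 (0.14) and without knockout replicate 2 (0.087). P4ha2 lost it in 3, with DESeq2 (0.25), without control replicate 1 (0.25) and without knockout replicate 1 (0.20).

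Fibroblasts and epithelium, whose markers were higher in the knockout libraries, can also express Vegfa and collagen hydroxylases. In the fibroblast list 10 of 11 genes were higher in knockout, with a median log2 fold change of 1.85, and in the epithelial list 9 of the 10 tested genes were higher, with a median of 2.73. Their part in the higher Vegfa, P4ha1 and P4ha2 was not tested.

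The genes left were low or level in colon. Bnip3, a mitophagy receptor, had 6 and 8 counts in knockout and 5 and 1 in control, Adm, the adrenomedullin gene, had 6 and 9 counts in knockout and 3 and 4 in control, and Car9, a carbonic anhydrase, had 7 and 2 counts in knockout and 0 and 0 in control. These 3 were not tested. Bnip3l, the related mitophagy receptor, had 43.3 and 55.2 CPM in knockout and 39.3 and 43.5 CPM in control and did not pass (adjusted p = 0.12). Ndrg1, a stress-induced gene, had 141 and 136 CPM in knockout and 139 and 133 CPM in control, overlapping ranges.

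**Figure D3:**
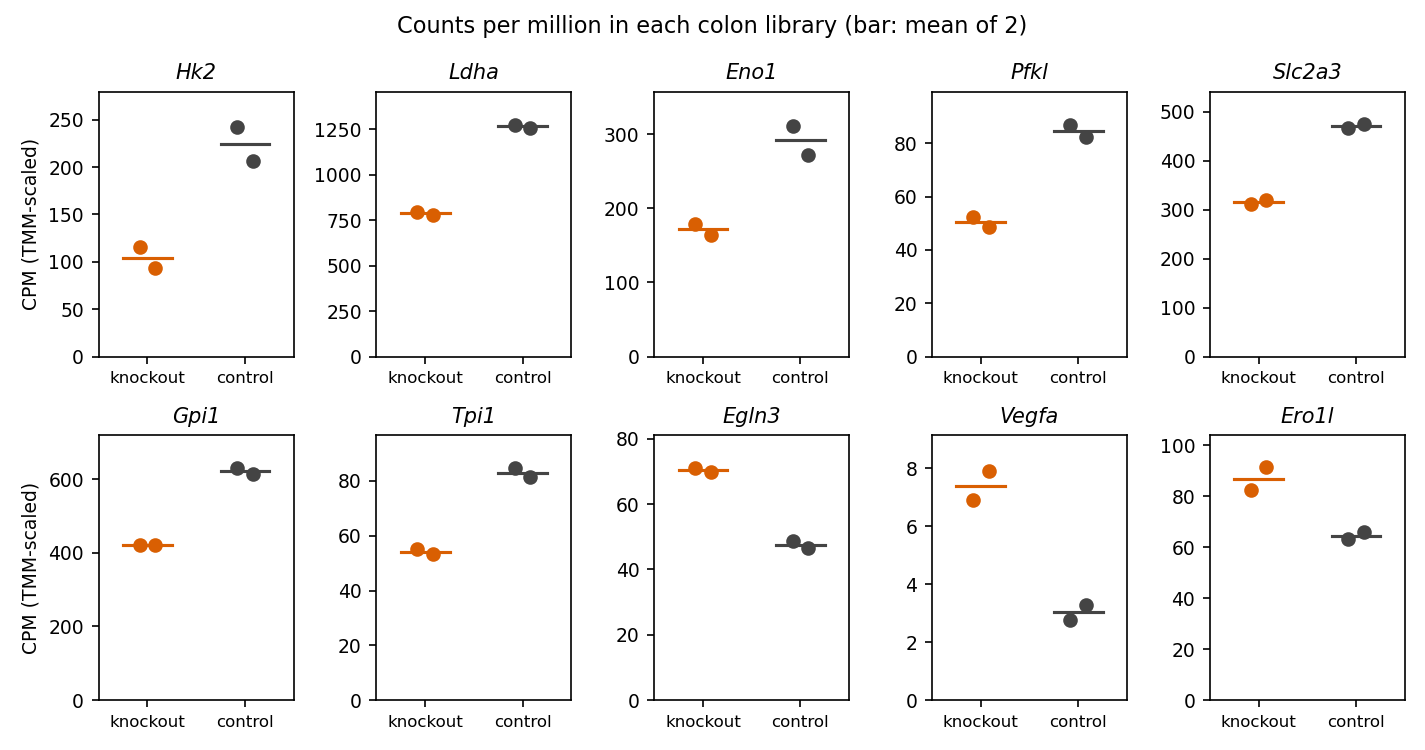
TMM-scaled CPM (vertical axes, each from 0) of 10 of the genes in each colon library, knockout left and control right; points are libraries and bars are means of 2. Hk2, Ldha, Eno1, Pfkl, Slc2a3, Gpi1 and Tpi1 have both knockout libraries below both control ones, and Egln3, Vegfa and Ero1l have both above.

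By rank alone, 21 of the 37 tested genes had both knockout libraries below both control ones, where 34.4% of all genes did, and 7 had both above, where 36.1% of all genes did. Replicates of these genes differed by a median of 0.13 on the log2 scale in knockout and 0.11 in control, close to the 0.14 of all tested genes in either group.

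Hif1a, Arnt and Vhl did not pass in colon. Hif1a had a log2 fold change of 0.04 ± 0.10, Arnt of -0.04 ± 0.10 and Vhl, the ubiquitin ligase subunit that removes HIF-1α, of -0.01 ± 0.10. Epas1, which encodes HIF-2α, did not pass either (0.16 ± 0.08, adjusted p = 0.12). In a list of HIF factors and regulators, 1 of the 12 tested genes was higher (Arnt2, 0.82 ± 0.17), where 19.6% of all genes were. Another 4 were lower, where 19.9% of all genes were. The lower ones were Elob, a partner of VHL (-0.57 ± 0.09), Siah2, a ubiquitin ligase (-0.46 ± 0.13), the hydroxylase Egln2 (-0.41 ± 0.08) and Hif1an, the asparaginyl hydroxylase that inhibits HIF-1α (-0.27 ± 0.09). The median of the list was -0.02.

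For the lists of this paragraph the shares over all genes tested were 19.9% lower and 19.6% higher in knockout. In the pathways next to glycolysis, 5 of 19 genes of pyruvate and pentose phosphate metabolism were lower in knockout and 2 were higher (median -0.15). The lower ones included the oxidative enzymes of the pentose phosphate pathway, G6pdx (-0.68 ± 0.08), Pgls (-0.82 ± 0.10) and Pgd (-0.39 ± 0.08), and Taldo1, the transaldolase (-0.34 ± 0.08). Of 21 tested further genes of glycolysis and glycogen 3 were lower and 3 higher (median 0.04). Bsg, the chaperone of the lactate carriers, was lower (-0.61 ± 0.07, adjusted p = 0.00011), and Hk3, a hexokinase known from myeloid cells, was higher (1.95 ± 0.38). Hk3 was scarce, with 31 and 32 counts in knockout and 7 and 7 in control. Of 32 tested further HIF1 targets, a list that shares Galk1, Gys1 and Gbe1 with that of glycolysis and glycogen, 9 were lower and 6 higher (median 0.00464). Examples were Ddit4, an inhibitor of mTORC1 (-0.87 ± 0.10), and Loxl2, a lysyl oxidase of connective tissue (2.87 ± 0.48). Loxl2 was also scarce, with 26 and 26 counts in knockout and 3 and 3 in control.

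In culture the genotypes gave levels close to each other. None of the 40 genes passed the test of genotype (0 of 40, against 0.0286% of the 13982 genes tested, or 4 genes, with 0.0143% higher and 0.0143% lower), and DESeq2 also called 0 of the 40. At an unadjusted p under 0.05 there was 1 gene, Aldoc, where 3.58% of all genes were. The median log2 fold change was -0.03 over the 40 genes and 0.00295 over all genes. In this fit the mixes stand in for replicates of genotype, with 1 residual degree of freedom.

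Of the 36 genes with at least 100 counts in each cultured library, 33 had knockout over control log2 ratios within 0.2 of 0 in both mixes. Hk2 had 279.8 CPM in knockout and 263 CPM in control in the IL-1β mix, and 251.3 CPM in knockout and 251.8 CPM in control in the TGF-β mix. Ldha had 2374 CPM in knockout and 2529 CPM in control in the IL-1β mix, and 2077 CPM in knockout and 2074 CPM in control in the TGF-β mix. The widest ratio among these 36 was that of Aldoc in the TGF-β mix, with 21.8 CPM in knockout and 38.8 CPM in control (log2 ratio -0.83), while in the IL-1β mix Aldoc had 136 CPM in knockout and 141 CPM in control. Each of these ratios sets 1 library against 1 and has no replicate check.

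A fit that took in the colon and the culture libraries asked whether the genotype difference itself differed between the settings. This fit gave each gene a shared spread for colon and cultured cells, although these differ widely. The cultures in it had no replicates. For 12 of the 40 genes the difference was lower in colon than in culture, where 9.54% of the 14976 genes tested were lower, and for 4 it was higher, where 7.69% were. Without adjustment 21 had a p under 0.05, where 30.4% of all genes did. The lower ones were Slc2a1, Slc2a3, Slc16a3, Hk2, Gpi1, Pfkl, Tpi1, Pgam1, Eno1, Pkm, Ldha and Pgm1, all of transport and glycolysis, and the higher ones were Vegfa, P4ha2, Egln3 and Ero1l. Hk2 had the lowest value of the 12, -1.15 ± 0.14 on the log2 scale (adjusted p = 0.00019), and Vegfa the highest of the 4, 1.19 ± 0.19 (adjusted p = 0.001). Calls of Hk2, Pfkl, Eno1, Ldha, Egln3 and Vegfa held in each alternative setting tried. With T cell marker scaling 4 genes were lower (Hk2, Pfkl, Eno1 and Ldha) and 8 higher, where 90.3% of the 3480 calls over all genes were higher. Without control replicate 1, or without knockout replicate 2, 2 genes were higher, and P4ha2 and Ero1l were lost (adjusted p = 0.21 and 0.059 without control replicate 1, 0.051 and 0.081 without knockout replicate 2).

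**Figure D4:**
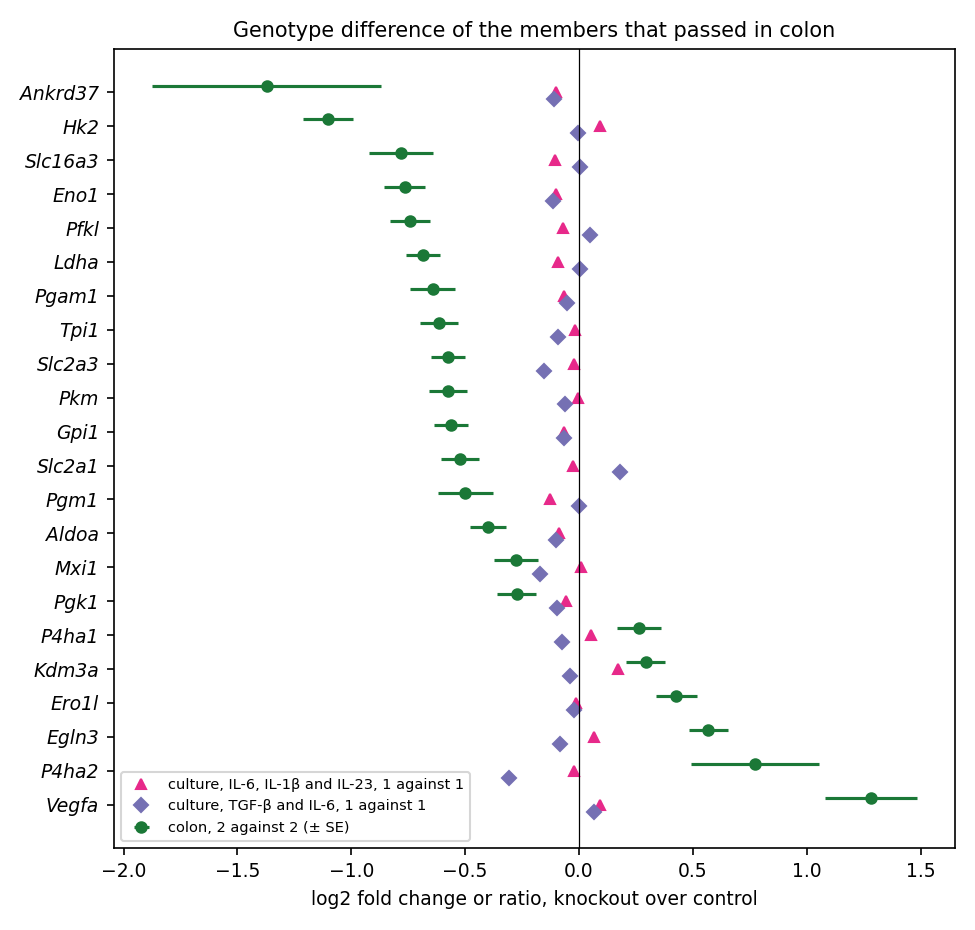
Knockout over control on the log2 scale (horizontal axis) for the 22 genes that passed in colon; green circles are the colon fit (± SE, 2 against 2), and triangles and diamonds are single-library ratios in the cultures. The colon points run between -1.37 and 1.28, while all but 1 of the culture ratios, that of P4ha2 in the TGF-β mix, lie within 0.2 of 0.

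The cytokine mix moved nearly the whole set. In the IL-1β mix, known to give Th17 cells of the inflammatory kind, 35 of the 40 genes were higher than in the TGF-β mix, where 35.8% of the 13982 genes tested were higher. Another 3 were lower, where 34% of all genes were lower, so that 38 of the 40 changed, where 69.8% of all genes did. The median log2 fold change was 1.27 over the 40 genes and 0.02 over all genes, and 23 genes were at least 2-fold higher. Of the 38 calls 34 held in all of 5 alternative settings, the others being Pfkfb3, Egln3, Kdm3a and Car9. In the fit of the cultures the genotypes stand in for replicates of the mix, with 1 residual degree of freedom. No culture was repeated, so the p-values of the mix do not measure a spread between replicates.

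Slc2a3 had the highest fold change of the transporters. It had 963 CPM in the IL-1β mix and 65.2 CPM in the TGF-β mix in knockout cells, and 978 CPM in the IL-1β mix and 72.5 CPM in the TGF-β mix in control cells (log2 fold change 3.82 ± 0.08, adjusted p = 2.1e-08). Slc2a1 also rose, with 274 CPM in the IL-1β mix and 191 CPM in the TGF-β mix in knockout, and 279.8 CPM in the IL-1β mix and 169 CPM in the TGF-β mix in control (0.62 ± 0.08). Per kilobase of exon the order of these glucose carriers turned round, since Slc2a1 was at 0.589 times the level of Slc2a3 in knockout and 0.591 times in control in the IL-1β mix, and at 6.07 times in knockout and 4.82 times in control in the TGF-β mix. The lactate carriers moved in opposite directions. Slc16a1 fell, with 171 CPM in the IL-1β mix and 405 CPM in the TGF-β mix in knockout, and 163 CPM in the IL-1β mix and 381 CPM in the TGF-β mix in control (-1.23 ± 0.07), while Slc16a3 rose by 0.87 ± 0.07.

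In upper glycolysis 8 of 9 genes rose, and in lower glycolysis 6 of 6. Hk1 rose by 1.17 ± 0.07 on the log2 scale, Gpi1 by 1.504 ± 0.07, Aldoa by 1.58 ± 0.07 and Pfkm by 1.74 ± 0.11. Hk2, the gene with the smallest p-value of genotype in colon, did not pass (0.11 ± 0.07, adjusted p = 0.18). Gapdh rose by 1.25 ± 0.07 and Pgk1 by 1.11 ± 0.07, and Pgam1, Eno1, Eno2 and Pkm rose by between 0.71 and 0.95. Ldha rose by 0.24 ± 0.07 and the much scarcer Ldhb by 1.67 ± 0.12. The minor aldolase Aldoc rose by 2.22 ± 0.16. Whether genes of a family differ in their fold change was not tested.

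Pgm1 was the glucose-handling enzyme with the highest fold. It had 212 CPM in the IL-1β mix and 31.7 CPM in the TGF-β mix in knockout, and 231 CPM in the IL-1β mix and 31.7 CPM in the TGF-β mix in control (log2 fold change 2.80 ± 0.08, adjusted p = 6.9e-08). Pgm2, by contrast, had 29.4 CPM in the IL-1β mix and 30.8 CPM in the TGF-β mix in knockout, and 27.8 CPM in the IL-1β mix and 32.7 CPM in the TGF-β mix in control, and did not pass (adjusted p = 0.18). Of flux control, Pfkfb4 rose by 1.75 ± 0.18 and Pdk1 by 1.28 ± 0.07, and Pfkfb3 fell by 0.26 on the log2 scale, a call that DESeq2 did not make (adjusted p = 0.088).

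The other HIF1 targets rose in 13 of 14 cases, with a median log2 fold change of 2.00. P4ha2, whose promoter above holds 4 motifs, had 83.4 CPM in the IL-1β mix and 4.33 CPM in the TGF-β mix in knockout, and 84.8 CPM in the IL-1β mix and 5.39 CPM in the TGF-β mix in control. Its log2 fold change of 4.11 ± 0.12 (adjusted p = 6.9e-08) was the highest of the 40. Ero1l had 857 CPM in the IL-1β mix and 168 CPM in the TGF-β mix in knockout, and 866 CPM in the IL-1β mix and 171 CPM in the TGF-β mix in control (2.34 ± 0.07). Mxi1 holds no motif in the window above, though it holds one at another of its 3 starts. Mxi1 had 259 CPM in the IL-1β mix and 54.6 CPM in the TGF-β mix in knockout, and 257 CPM in the IL-1β mix and 61.5 CPM in the TGF-β mix in control (2.15 ± 0.08). In each of these genes the genotypes lay close together and the mixes far apart.

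The mitophagy receptors rose together, though Bnip3 has 5 near-identical copies, as given above. Bnip3 had 131 CPM in the IL-1β mix and 17.4 CPM in the TGF-β mix in knockout, and 118 CPM in the IL-1β mix and 20.5 CPM in the TGF-β mix in control (2.72 ± 0.11). Bnip3l had 303 CPM in the IL-1β mix and 67.2 CPM in the TGF-β mix in knockout, and 307 CPM in the IL-1β mix and 76.4 CPM in the TGF-β mix in control (2.09 ± 0.08). Ndrg1 had 707 CPM in the IL-1β mix and 184 CPM in the TGF-β mix in knockout, and 669.5 CPM in the IL-1β mix and 184 CPM in the TGF-β mix in control (1.90 ± 0.07). Vegfa rose by 1.38 ± 0.07, Adm by 2.99 ± 0.24 and P4ha1 by 0.93 ± 0.07. Car9 stayed under 1 CPM in every cultured library, and its call (2.23 ± 0.53, adjusted p = 0.0053) was lost with DESeq2 (adjusted p = 0.15). Egln1 rose by 1.64 ± 0.07 and Egln3 by 0.21 ± 0.07, a call lost without the filter on low counts (adjusted p = 0.085), and Ankrd37 rose by 1.39 ± 0.12. Kdm3a fell by 0.21 on the log2 scale (adjusted p = 0.039), and lost the call with DESeq2 (0.12) and without the filter (0.087).

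Within each genotype, where 1 library is set against 1 with no test, 23 of 39 genes that reached 5 CPM were at least 2-fold higher in the IL-1β mix in knockout cells (15.1% of all such genes) and 22 of 39 in control cells (15.1%). In both genotypes 1 gene, Slc16a1, was at least 2-fold lower, where 12.4% of such genes in knockout and 13% in control were. The log2 effect of the mix differed between the genotypes by a median of 0.0989 over the 36 genes with at least 100 counts in each cultured library, and by most in Aldoc (2.63 in knockout and 1.85 in control).

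**Figure D5:**
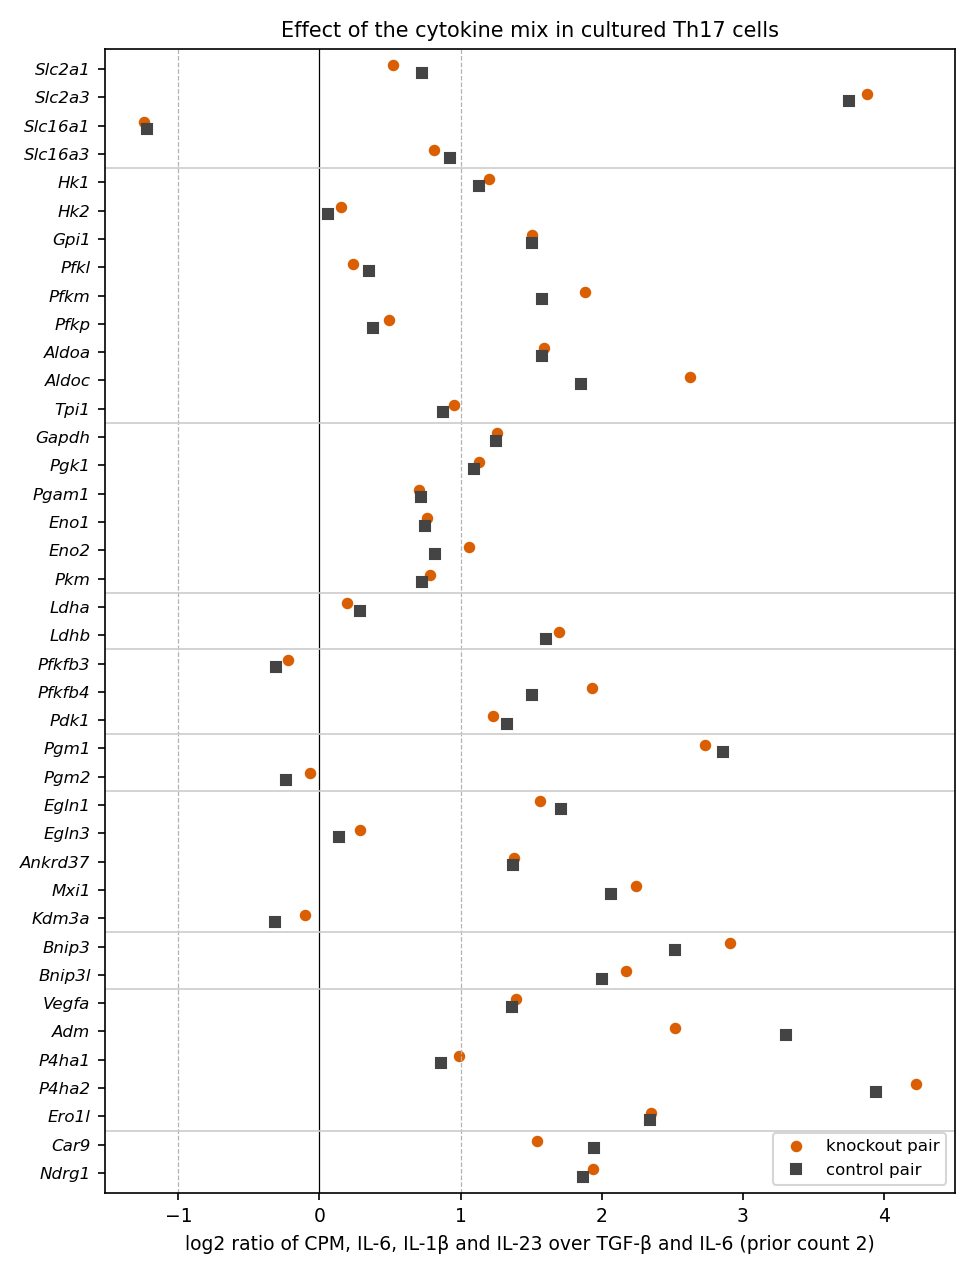
Log2 ratio of IL-6, IL-1β and IL-23 over TGF-β and IL-6 (horizontal axis, 1 library over 1, prior count 2) for the 40 genes in order of role; circles are the knockout pair and squares the control pair, and dashed lines mark a 2-fold change. Most genes lie right of 0 with circle and square close together, P4ha2 and Slc2a3 lie furthest right, and Slc16a1 lies furthest left.

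Among HIF factors and regulators 5 of 11 tested genes were higher in the IL-1β mix and 0 were lower. They included Hif3a (2.01 ± 0.22), Arnt (0.78 ± 0.08) and Egln2 (0.43 ± 0.09), while Hif1a (0.12 ± 0.08, adjusted p = 0.18) and Vhl (0.11 ± 0.09, adjusted p = 0.29) did not pass. Further genes of glycolysis and glycogen rose in 12 of 21 cases and fell in 5 (median 0.43). Gys1 (3.20 ± 0.09) and Gbe1 (2.67 ± 0.09), which build glycogen, rose with Pgm1, and Adpgk, a glucokinase that uses ADP, fell (-1.67 ± 0.07). Of 18 pyruvate and pentose phosphate genes 3 were higher, 8 were lower and 7 did not pass (median -0.21), where 35.8% of all genes were higher and 34% lower. The lower ones included Rpia (-0.93 ± 0.09), which makes ribose 5-phosphate. Further HIF1 targets, which again include Galk1, Gys1 and Gbe1 of the preceding list, rose in 25 of 35 cases and fell in 7 (median 0.83), with Vldlr (4.59 ± 0.13) and Cxcr4 (2.08 ± 0.07) among those that rose. In the same cells all 16 proliferation markers fell, to a summed level of 1142 CPM in knockout and 1073 CPM in control in the IL-1β mix, against 3781 CPM in knockout and 3789 CPM in control in the TGF-β mix. The fibroblast list summed to 413 CPM in knockout and 450 CPM in control in the IL-1β mix, against 5.08 CPM in knockout and 3.99 CPM in control in the TGF-β mix, nearly all of it Lum in the IL-1β mix (387 CPM in knockout). Other lists also summed higher in the IL-1β mix than in the TGF-β mix. Dendritic cell markers had 577 CPM in knockout and 609 CPM in control, against 196 CPM in knockout and 192 CPM in control. Neutrophil markers had 102 CPM in knockout and 86.0 CPM in control, against 3.95 CPM in knockout and 3.30 CPM in control, and endothelial markers had 71.8 CPM in knockout and 64.7 CPM in control, against 17.8 CPM in knockout and 14.7 CPM in control. Macrophage markers had 28.0 CPM in knockout and 30.9 CPM in control, against 2.64 CPM in knockout and 2.28 CPM in control. What part these differences have in the levels of the 40 genes was not tested.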

How the data were processed

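The deposited tables held raw read counts per gene for each of 8 libraries, with no normalization, per the file headers. Per the submitters' processing notes, Trim Galore, Bowtie2, featureCounts, edgeR and DESeq2 were used on build mm10. Their roles and versions, the strand setting and the annotation release are not given in the sources used here, so overlapping and antisense genes may share reads. The colon tables (54446 entries) carry Ensembl identifiers and the culture tables (55339 symbols) carry symbols that occur in GENCODE M21, apart from 24 that had been turned into dates and hold at most 0.269% of a library. Tables were joined through identifiers and M21 symbols, which matters for Pgm1 and Pgm2, named the other way round in the colon tables. Aldoa has another entry in the colon tables with at most 4 counts, which was not used.

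Counts were tested in R 4.3.3 by the quasi-likelihood F-test of edgeR 4.0.16, with low-count genes removed by filterByExpr, TMM factors, and p-values adjusted by Benjamini-Hochberg over all genes tested (threshold 0.05). Colon had a fit of its own with 2 residual degrees of freedom, culture with terms for mix and genotype (1 residual degree of freedom), and the difference of genotype effects in all 8 libraries (3 residual degrees of freedom). The scripts were tested on simulated data. Replicate colon libraries differed by more than counting error (chi-square per gene 5.51 in knockout and 7.57 in control). Colon p-values measure only the spread between libraries, which may be technical. Culture had 1 library per genotype and mix. Its p-values rest on how far the effects of genotype and mix departed from adding up, and not on replicates. Alternatives were library totals, DESeq2 size factors, no filter, DESeq2 1.42.0, other sets of libraries, a replicate block and, added after the data were seen, scaling to T cell markers. All 40 genes are accounted for. Up to 8 genes per comparison with the smallest p-values were to be given library by library, further ones were added, and up to 4 genes per further list were named by the smallest p-values, with Hif1a, Arnt, Vhl and Egln2. A gene that this rule names is not reported here. The members and lists were chosen with earlier results of these data known. Near-identical copies were searched with BLAST 2.17.0 against the M21 transcripts.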

Additional observations from a re-analysis of the deposited data

Results flagged for a closer look

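The genotype difference differed between colon and culture, by edgeR's quasi-likelihood test of that difference with Benjamini-Hochberg adjustment, in 16 of the 40 genes, where 17.2% of all genes tested differed. Of these 16 calls 6 held in every alternative setting run (Hk2, Pfkl, Eno1, Ldha, Egln3 and Vegfa), and T cell marker scaling left 4 genes lower, against 12. With that scaling 90.3% of the 3480 calls over all genes were higher, against 44.6% as reported. The test shared its spread between colon and cultured cells, which differ widely, and the cultures had no replicates. Each value is the log2 fold change of knockout over control in colon minus that in culture. It was below 0 for Hk2 (-1.15), Slc16a3 (-0.74), Pfkl (-0.74), Eno1 (-0.66), Ldha (-0.65), Slc2a1 (-0.60), Pgam1 (-0.59), Tpi1 (-0.57), Pkm (-0.55), Slc2a3 (-0.50), Gpi1 (-0.50) and Pgm1 (-0.43). It was above 0 for Vegfa (1.19), P4ha2 (0.87), Egln3 (0.57) and Ero1l (0.44). Markers of epithelium, fibroblasts, B and plasma cells, dendritic cells and macrophages also moved with genotype in colon, and their part in these values was not tested.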

How the results depend on the processing

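In colon, library totals gave 10 higher genes, and T cell marker scaling 11 higher and 10 lower, against 6 and 16 as reported. Of all calls 77.3% and 88.1% were higher in these 2 settings, against 49.6%. With T cell marker scaling Slc16a1 (0.31), Pgk1 (0.037) and Mxi1 (0.031) changed direction among genes that passed in either setting. Pfkp, Aldoc, Pdk1, Pgm2 and Egln1, which passed in neither, also changed direction. The cause was not tested. Leaving out a colon library gave 19 to 20 called genes, against 22. Same-numbered colon libraries correlated in their deviations at 0.15 over 2 pairs, too few to tell whether the numbers pair them. The replicate block gave 25 called genes (7 higher and 18 lower), and 6230 of all genes, against 5173. For genotype in culture, all genes called numbered 9 with library totals, 9 with DESeq2 size factors, 0 without a filter, 7 with DESeq2 and 15 in the fit of all 8 libraries, against 4. None of these settings called a listed gene, and the members' median was -0.057 within the TGF-β mix alone. For the cytokine mix DESeq2 left 1 lower gene of 3. For colon minus culture, genes higher numbered 7 with library totals and 8 with T cell marker scaling, which left 4 lower. Of all calls 80.1% and 90.3% were higher in these 2 settings, against 44.6%. Leaving out a colon library gave 2 to 4 higher genes, and 1677 to 2443 of all genes called, against 2579. In 52 cases a gene that passed in neither setting had a change of sign. The largest log2 value in these cases, in either setting, was 0.275 in size. Bnip3, Adm, Car9 and Ankrd37 in colon are limited by their few counts.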
